A study of Mus musculus with 9 samples.

Results

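Megakaryocyte and platelet genes were examined in sorted CD71(hi) erythroid cells of mice in which the corepressor gene Trim28 had been deleted or left intact. The set held 9 genes chosen by symbol for their place in platelet biology, Pf4, Ppbp, Gp1ba, Gp1bb, Gp5, Gp9, Itga2b, Itgb3 and Vwf. They were chosen with earlier results of these data known. All 9 were found among the 23285 genes of the authors' deposited table. KOb cells were CD71(hi)TER119- and came from C57BL/6 mice of genotype TRIM28(flox/flox):Mx1Cre. KOa cells had the same genotype but were CD71(hi)TER119+. The control cells, FFa, were CD71(hi)TER119+ and came from C57BL/6 mice that were TRIM28(flox/flox) without Cre. Each group held 3 libraries, 9 in all. Mx1Cre is switched on by interferon, here through 5 poly(I:C) injections, given every other day, with cells taken 2 weeks later. It acts in many tissues and is not restricted to the erythroid lineage. Whether FFa mice received poly(I:C), and the age and sex of the mice, are not given in the labels used here. Per the series description, 1 to 4% of the gene stayed undeleted in KOb and 5 to 8% in KOa. Between the mutants the gate differs with the degree of deletion, and against FFa the deletion differs with Cre, so these cannot be told apart. KOb also differs from FFa in the TER119 gate, so in KOb against FFa the gate cannot be told apart from Cre and deletion.

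Megakaryocytes and erythroblasts descend from a shared bipotent progenitor and share much of their transcription factor set, including GATA1 and NFE2. Megakaryocytes then build the platelet's adhesion receptors and fill its alpha granules. Platelets catch on von Willebrand factor through the GPIb-IX-V complex, bind fibrinogen through the integrin of ITGA2B (CD41) and ITGB3 (CD61), and release chemokines such as platelet factor 4. CD41 is also carried by early haematopoietic progenitors in the mouse, so its gene is not a marker of platelets alone.

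Of the 9 genes, 4 were higher in both mutant groups than in the control: the chemokine gene Pf4, the receptor genes Gp1ba and Gp5, and the integrin gene Itga2b. Gp1bb was lower in both. Vwf was lower in KOb. Gp9, the most abundant of the 9 in every group, and Itgb3 were called in neither mutant against FFa. Ppbp was listed at very low values and was not tested by the authors. A gene is counted as called where the test was completed and its q-value, the p-value adjusted for all genes of all 3 comparisons, was below 0.05.

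Promoter windows are shown for the 4 genes called higher in both mutants against FFa. Of these, Gp5 also differed between the mutants. The windows run from 250 bases before to 50 bases after the RefSeq start site and are read on the gene's strand (RefSeq, GRCm38.p6). Capitals mark GATAA, the core recognised by GATA factors, and CCGGAA or CAGGAA, 2 forms recognised by ETS factors such as FLI1, on either strand. The motifs did not overlap one another in these windows.
Pf4, chr5:90772185-90772484, strand +: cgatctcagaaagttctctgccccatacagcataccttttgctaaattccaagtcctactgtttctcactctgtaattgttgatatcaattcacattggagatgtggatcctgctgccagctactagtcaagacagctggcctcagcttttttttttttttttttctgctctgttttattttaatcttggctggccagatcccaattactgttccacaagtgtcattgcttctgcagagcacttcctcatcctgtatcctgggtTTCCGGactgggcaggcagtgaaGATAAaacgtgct
Gp1ba, chr11:70638872-70639171, strand +: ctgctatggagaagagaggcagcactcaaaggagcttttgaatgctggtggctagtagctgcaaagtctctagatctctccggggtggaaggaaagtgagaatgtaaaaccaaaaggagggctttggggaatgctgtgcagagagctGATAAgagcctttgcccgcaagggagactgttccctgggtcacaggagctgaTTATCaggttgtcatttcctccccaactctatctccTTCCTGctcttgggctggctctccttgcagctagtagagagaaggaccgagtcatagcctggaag
Itga2b, chr11:102469834-102470133, strand -: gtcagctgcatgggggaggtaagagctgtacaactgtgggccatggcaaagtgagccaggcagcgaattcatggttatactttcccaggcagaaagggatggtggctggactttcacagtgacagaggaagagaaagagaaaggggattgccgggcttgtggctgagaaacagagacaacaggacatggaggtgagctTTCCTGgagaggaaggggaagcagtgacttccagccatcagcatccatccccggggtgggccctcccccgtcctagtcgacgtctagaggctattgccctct
Gp5, chr16:30310732-30311031, strand -: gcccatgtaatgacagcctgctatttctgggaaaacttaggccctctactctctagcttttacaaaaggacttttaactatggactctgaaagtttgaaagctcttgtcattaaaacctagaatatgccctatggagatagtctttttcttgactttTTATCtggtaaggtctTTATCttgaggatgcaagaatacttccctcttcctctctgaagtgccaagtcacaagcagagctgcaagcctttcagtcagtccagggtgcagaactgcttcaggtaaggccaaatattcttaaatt

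A window was found for 7 of the 9 genes. GATAA was present in 4 of the 7, namely Pf4, Gp1ba, Gp5 and Gp9, and in 25.4% of all 32851 promoter windows of that length. Either ETS form was present in 4 of the 7, namely Pf4, Ppbp, Gp1ba and Itga2b, and in 41.4% of all windows. Pf4 and Gp1ba held both kinds of motif, as did 9.76% of all windows. Of the genes that were higher in both mutants, Gp5 held GATAA alone and Itga2b held CAGGAA alone. Gp1bb held none of these letters in its window, and Gp9, which was called in neither mutant against FFa, held GATAA. These matches are descriptions of letters and not of bound sites.

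Expression is given as FPKM, mapped fragments scaled to transcript length and to library size. How the libraries were scaled to each other is not known here. The authors' deposited table holds 1 FPKM per gene and group, in which the 3 libraries are already combined, so no SD can be given and the depth of each library is unknown. The error after a log2 ratio, written ±, is a standard error taken as the log2 ratio divided by the authors' test statistic. Trim28 stood at 4.76 FPKM in KOb, 6.64 in KOa and 26.0 in FFa, log2 ratios of -2.45 ± 0.30 and -1.97 ± 0.30 against FFa in the authors' deposited table. All 12 erythroid markers examined were above 1 FPKM in every group, and their sum was 3920 FPKM in KOb, 5761 in KOa and 6805 in FFa. RNA of other blood cells was present too, since neutrophil markers summed to 13403 FPKM in KOb, 16559 in KOa and 48832 in FFa. In RNA from a sorted population, fewer cells of a type and less RNA per cell cannot be told apart.

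In KOb against FFa, 4 of the 8 members tested were higher, where 12.8% of all genes tested were higher, and 2 were lower, where 15.2% of all genes were lower and 28% were called in either direction. In KOa against FFa, 4 of 8 were higher (7.99% of all genes) and 1 was lower (14.1% of all genes, with 22.1% called in either direction). Between the mutants, in KOb against KOa, 1 of 8 was higher (10% of all genes) and 1 was lower (6.19% of all genes, with 16.2% called in either direction). The median log2 ratio over the 8 tested members was 0.97 in KOb against FFa, beside -0.01 over all genes tested. It was 1.06 in KOa against FFa, beside -0.08. In KOb against KOa it was -0.06, beside 0.05. Both comparisons with FFa use the same control libraries. Because the members were chosen with earlier results of these data known, these shares and medians describe the set and do not test it. The medians hide a split, since the members fell on both sides of 0.

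**Figure D1:**
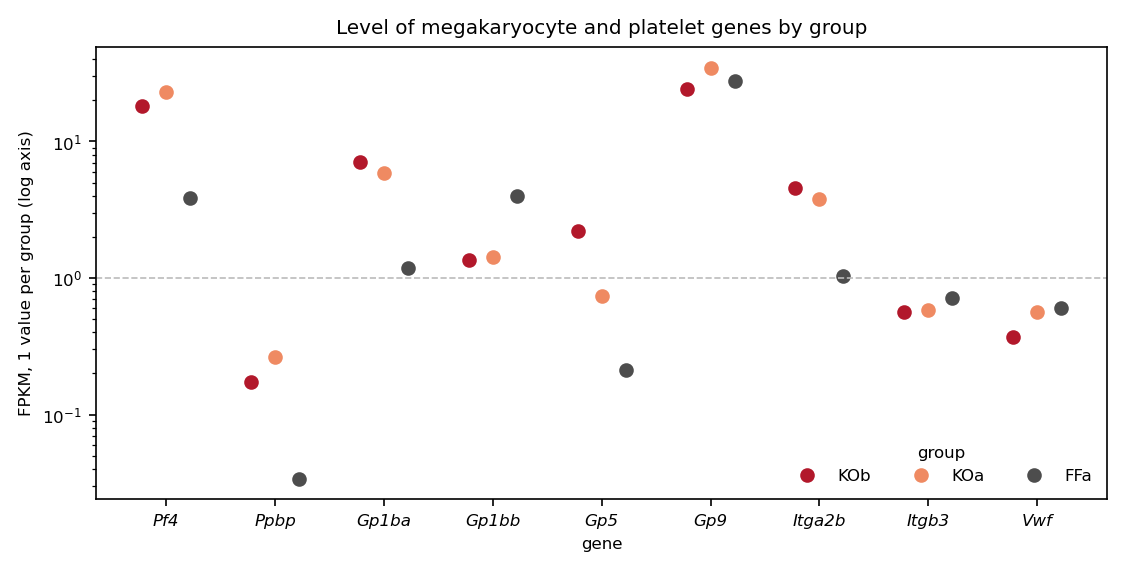
FPKM of the 9 megakaryocyte and platelet genes on a log axis, with 1 point per gene and group and a dashed line at 1 FPKM. Pf4, Gp1ba, Gp5 and Itga2b have both mutant points above the FFa point, Gp1bb has both below it, and the 3 points of Gp9 lie between 24.4 and 34.8 FPKM.

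Pf4 encodes platelet factor 4 (CXCL4), a heparin-binding chemokine that megakaryocytes make in bulk and whose promoter is widely used to mark that lineage. Its locus in the authors' table is chromosome 5, 90772435 to 90773383 (mm10). Pf4 stood at 18.3 FPKM in KOb, 22.9 in KOa and 3.85 in FFa. Both mutant values were several times the control value, and the mutants were close to each other. In the authors' deposited table the log2 ratio was 2.25 ± 0.36 in KOb against FFa and 2.57 ± 0.36 in KOa against FFa, each with a q of 0.000619. That q belongs to the smallest p the authors' test could give, 5e-05. Of all genes tested, 98.7% had a lower ratio than Pf4 in KOb and 98.9% in KOa. For KOb against KOa the authors' deposited table gave -0.33 ± 0.27 (q = 0.298), not past the threshold, with an implied 95% interval from -0.85 to 0.20.

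Ppbp, the gene of pro-platelet basic protein (CXCL7), lies at chromosome 5, 90768518 to 90770060, 2375 bases from Pf4. It is another abundant chemokine of platelet granules. Its values were 0.172 FPKM in KOb, 0.266 in KOa and 0.0340 in FFa, and the authors made no test at this level. Pf4 thus exceeded Ppbp 106-fold in KOb, 86.3-fold in KOa and 113-fold in FFa, in FPKM, which corrects for length. The remaining genes of this CXC chemokine cluster within 50000 bases, Cxcl5, Cxcl3 and Cxcl15, were at or below 0.138 FPKM in all 3 groups and were not tested either. Across this stretch of chromosome 5, Pf4 was the 1 gene above 1 FPKM.

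The GPIb-IX-V complex is the platelet receptor for von Willebrand factor. GPIb alpha, from Gp1ba, carries the binding site, GPIb beta and GPIX hold the complex together on the membrane, and GPV is its looser partner. The 4 subunit genes did not move together in these cells. Gp1ba (chromosome 11, 70639122 to 70642055) stood at 7.04 FPKM in KOb, 5.88 in KOa and 1.19 in FFa. Its log2 ratio in the authors' deposited table was 2.56 ± 0.40 in KOb against FFa and 2.30 ± 0.41 in KOa against FFa, with a q of 0.000619 in both. KOb and KOa lay close together (log2 ratio 0.26 ± 0.32, q = 0.355, from the authors' deposited table).

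Gp5 (chromosome 16, 30307693 to 30310779) was the member with the widest spread, at 2.22 FPKM in KOb, 0.742 in KOa and 0.213 in FFa. The 3 groups were ordered, with KOb highest and FFa lowest. In the authors' deposited table its log2 ratio was 3.39 ± 0.84 in KOb against FFa (q = 0.000619) and 1.80 ± 0.91 in KOa against FFa (q = 0.0437). Taking the statistic's p from a standard normal distribution ended the KOa call (q = 0.295). Gp5 was the member called higher in KOb against KOa, with a log2 ratio of 1.58 ± 0.54 (q = 0.000619, both from the authors' deposited table). The control value is low, so the size of these ratios is loosely determined.

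Gp9 (chromosome 6, 87778136 to 87779762) stood at 24.4 FPKM in KOb, 34.8 in KOa and 27.8 in FFa. The FFa value lay between those of the mutants, and neither mutant was called against it. Which of the sorted cells held the Gp9 transcript was not tested. The log2 ratio was -0.19 ± 0.25 in KOb against FFa (q = 0.529) and 0.32 ± 0.25 in KOa against FFa (q = 0.226) in the authors' deposited table. Their implied 95% intervals ran from -0.68 to 0.31 and from -0.16 to 0.81. In KOb against KOa, Gp9 was lower, with a log2 ratio of -0.51 ± 0.26 (q = 0.0342, both from the authors' deposited table). The normal distribution's p ended that call (q = 0.299).

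Gp1bb moved the other way from Gp1ba. It stood at 1.36 FPKM in KOb, 1.44 in KOa and 3.98 in FFa, so that both mutants lay below the control. In the authors' deposited table the log2 ratio was -1.55 ± 0.75 in KOb against FFa and -1.47 ± 0.69 in KOa against FFa, with a q of 0.00548 in both. Both calls ended with the normal distribution's p (q = 0.264 in KOb and 0.245 in KOa). The table gives Gp1bb the same locus as Sept5 (chromosome 16, 18620319 to 18629938), a septin gene just upstream on the same strand whose transcripts run into Gp1bb. Reads in the shared part could be split either way, so the value of Gp1bb is uncertain. Sept5 itself stood at 0.707 FPKM in KOb, 0.913 in KOa and 1.60 in FFa and was not called (log2 ratios -1.18 ± 1.20 and -0.81 ± 1.03 against FFa in the authors' deposited table).

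Ratios between subunit genes differed between the groups in both directions. Gp9 exceeded Gp1ba 3.47-fold in KOb, 5.92-fold in KOa and 23.3-fold in FFa. Over Gp5 the excess of Gp9 was 46.9-fold in KOa and 131-fold in FFa, and it was smaller in KOb. Over Gp1bb the order was turned, with an excess of Gp9 of 17.9-fold in KOb, 24.2-fold in KOa and 6.99-fold in FFa. Gp1ba exceeded Gp5 by 3.17-fold in KOb, 7.92-fold in KOa and 5.61-fold in FFa. The subunits' FPKM can be set against each other because they are per length. These ratios come from group values and carry no error.

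**Figure D2:**
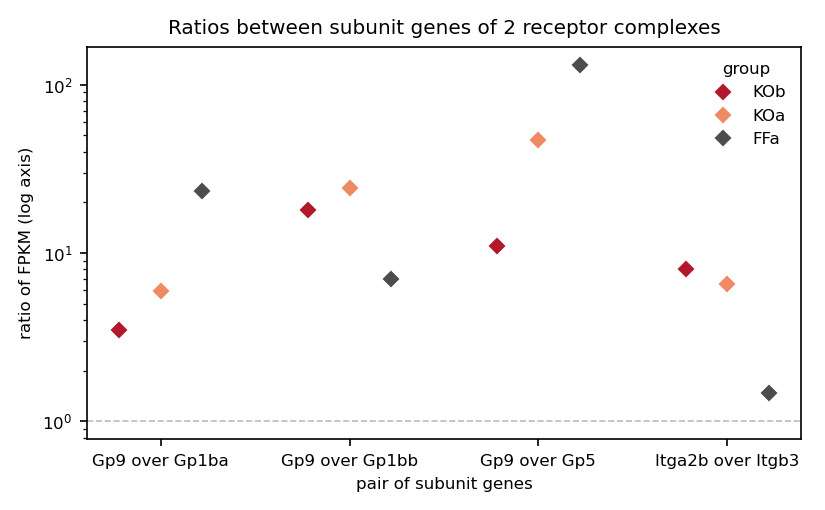
Ratio of FPKM between subunit genes of the GPIb-IX-V complex and of the fibrinogen receptor integrin, on a log axis, with 1 point per pair and group. Gp9 over Gp1ba and Gp9 over Gp5 are highest in FFa (23.3 and 131), Gp9 over Gp1bb is lowest in FFa (6.99), and Itga2b over Itgb3 is lowest in FFa (1.47).

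The fibrinogen receptor is a heterodimer, and its 2 genes differed. Itga2b (chromosome 11, 102453297 to 102469883), the alpha chain found on megakaryocytes and early progenitors, stood at 4.55 FPKM in KOb, 3.76 in KOa and 1.04 in FFa. In the authors' deposited table its log2 ratio was 2.13 ± 0.40 in KOb against FFa and 1.85 ± 0.40 in KOa against FFa, each with a q of 0.000619. The mutants were near each other (0.27 ± 0.33, q = 0.340, from the authors' deposited table). Itgb3 (chromosome 11, 104608000 to 104670471), the beta chain shared with the vitronectin receptor, stood at 0.563 FPKM in KOb, 0.579 in KOa and 0.709 in FFa. Its log2 ratio was -0.33 ± 0.47 in KOb against FFa (q = 0.417) and -0.29 ± 0.47 in KOa against FFa (q = 0.476) in the authors' deposited table. Itga2b exceeded Itgb3 by 8.08-fold in KOb and 1.47-fold in FFa, with KOa between them.

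Vwf, the gene of von Willebrand factor, is made by endothelial cells as well as megakaryocytes. It lies at chromosome 6, 125552963 to 125686677, and stood at 0.367 FPKM in KOb, 0.563 in KOa and 0.604 in FFa. KOb was lower than FFa, with a log2 ratio of -0.72 ± 0.45 (q = 0.0377, both from the authors' deposited table), a call that ended with the normal distribution's p (q = 0.474). KOa against FFa gave -0.10 ± 0.42 (q = 0.812, from the authors' deposited table). Of 10 endothelial markers, the defining genes Cdh5 and Kdr were at or below 0.181 FPKM in every group and Emcn was listed at 0 in FFa. Pecam1, which leukocytes and platelets also carry, stood at 1.03 FPKM in KOb, 0.848 in KOa and 1.69 in FFa and was lower in both mutants (-0.72 ± 0.46 and -0.999 ± 0.48 in the authors' deposited table). Egfl7 stood at 1.24 FPKM in KOb, 0.480 in KOa and 0.603 in FFa and was not called. The endothelial list summed to 3.09 FPKM in KOb, 2.47 in KOa and 2.78 in FFa, and its part in the Vwf value was not tested.

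**Figure D3:**
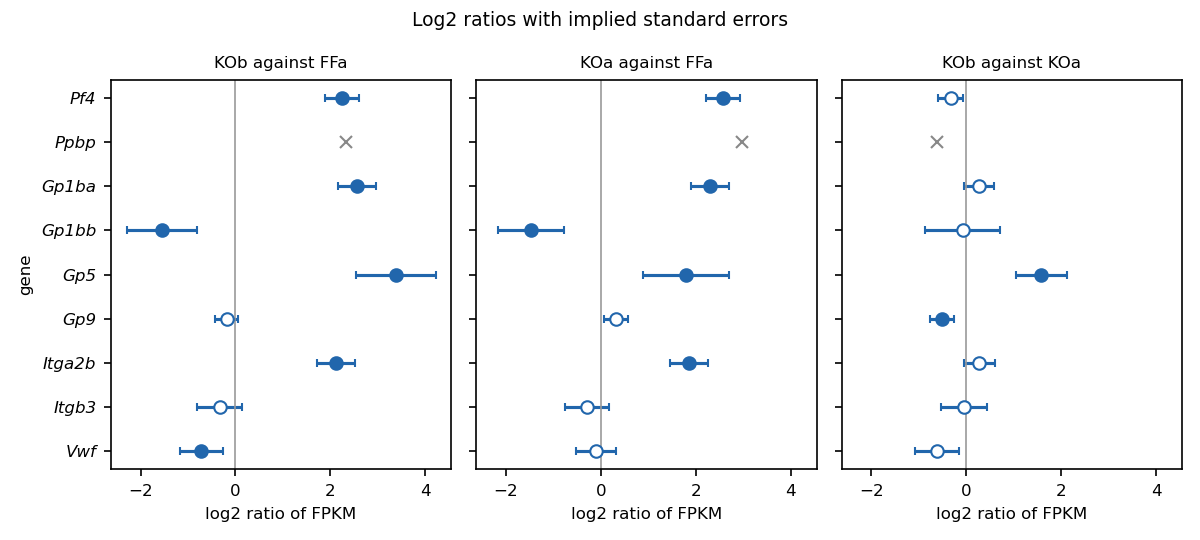
Log2 ratio of FPKM for each gene in the 3 comparisons, with the standard error implied by the authors' statistic as bars, filled points for genes called at a q below 0.05, open points for genes not called and crosses for the untested Ppbp. Pf4, Gp1ba, Gp5 and Itga2b lie right of 0 in both comparisons with FFa, and Gp1bb lies left of 0 in both.

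Other genes of platelets and megakaryocytes were called in both directions. Of 71 further genes in 5 lists, 70 were in the table and 47 were tested in each comparison with FFa. In KOb against FFa, 9 were higher and 12 lower (median log2 ratio -0.17), and in KOa against FFa 8 were higher and 14 lower (median -0.02). In KOb against KOa, 4 were higher and 4 lower of 46 tested (median -0.04). Many of these calls rest on ratios under 2 standard errors. With the statistic's p taken from a normal distribution, 4 higher (F2r, Ptger3, Srgn and Tbxas1) and 3 lower genes (F13a1, Fcer1g and Tpm4) remained called in KOb against FFa. In KOa against FFa the same 4 higher genes and 3 lower ones (F13a1, Fcer1g and Flna) remained, and between the mutants 0 of the 8 did. In all, 44.7% of those tested were called in KOb against FFa, beside 28% of all genes, and 46.8% in KOa, beside 22.1%. Between the mutants the share was 17.4%, beside 16.2%. By direction, 19.1% were higher and 25.5% lower in KOb against FFa, beside 12.8% and 15.2% of all genes. In KOa against FFa 17.0% were higher and 29.8% lower, beside 7.99% and 14.1%. A further 23 were tested in no comparison, and none of them exceeded 0.33 FPKM. By listed FPKM, 15 of the 23 were above FFa in KOb and 19 in KOa. A late platelet gene was among the 23. Tubb1, the platelet beta-tubulin gene, was at 0.0755 FPKM in KOb, 0.249 in KOa and 0.00855 in FFa. It was chosen for mention after its values were seen.

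Among granule and secreted products, 2 were higher and 3 lower of 8 tested in KOb against FFa (median log2 ratio 0.04), and 2 were higher and 4 lower in KOa against FFa (median -0.50). In KOb 25% were higher and 37.5% lower, beside 12.8% and 15.2% of all genes tested. In KOa 25% were higher and 50% lower, beside 7.99% and 14.1%. Srgn, which encodes the proteoglycan that packs granules in many blood cells, rose by 1.14 ± 0.23 in KOb and 0.80 ± 0.24 in KOa on the log2 scale of the authors' deposited table. Its level was 159 FPKM in KOb, 126 in KOa and 72.2 in FFa. F13a1, the gene of coagulation factor XIII A, which monocytes and macrophages also make, stood at 0.197 FPKM in KOb, 0.318 in KOa and 4.79 in FFa (log2 ratios -4.61 ± 0.72 and -3.92 ± 0.60 against FFa in the authors' deposited table). Nbeal2, needed for alpha granule formation, was lower in both mutants (-0.80 ± 0.35 and -0.76 ± 0.34), as was the factor V gene F5 (-0.77 ± 0.39 and -0.71 ± 0.39), in KOb and KOa. Between the mutants, Tgfb1 was the 1 gene of this list called, higher in KOb by 0.93 ± 0.32.

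Of 11 receptor and surface genes tested, 3 were called up and 2 down in KOb against FFa (median -0.05), and 2 up and 3 down in KOa against FFa (median -0.01). In KOb 27.3% were higher and 18.2% lower, beside 12.8% and 15.2% of all genes tested. In KOa 18.2% were higher and 27.3% lower, beside 7.99% and 14.1%. The thrombin receptor gene F2r (PAR1) stood at 7.42 FPKM in KOb, 4.24 in KOa and 0.755 in FFa. Its log2 ratio in the authors' deposited table was 3.30 ± 0.43 in KOb against FFa, 2.49 ± 0.44 in KOa against FFa and 0.81 ± 0.32 in KOb against KOa, all called. Mouse platelets themselves sense thrombin through the receptors of F2rl2 and F2rl3 rather than F2r. Neither was called. F2rl3, chosen after its values were seen, was at 0.428 FPKM in KOb, 0.523 in KOa and 0.0249 in FFa, with log2 ratios of 4.10 ± 2.38 and 4.39 ± 2.37. The prostaglandin E receptor gene Ptger3 was higher in both mutants (2.03 ± 0.62 in KOb and 1.85 ± 0.63 in KOa). The tetraspanin gene Cd9 was higher in KOb against both other groups (0.86 ± 0.30 against FFa and 0.89 ± 0.30 against KOa). Fcer1g, the signalling chain of the collagen receptor and of Fc receptors on many leukocytes, was lower in both mutants (-1.22 ± 0.22 and -0.82 ± 0.21), and so was Itgb1 (-0.59 ± 0.30 and -0.73 ± 0.30).

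Of 9 cytoskeletal and integrin signalling genes tested, 1 was called higher and 4 lower in KOb against FFa (median -0.50), and 1 higher and 5 lower in KOa against FFa (median -0.53). In KOb 11.1% were higher and 44.4% lower, beside 12.8% and 15.2% of all genes tested. In KOa 11.1% were higher and 55.6% lower, beside 7.99% and 14.1%. Rescaling FPKM to the sum without globin genes adds 0.51 to every log2 ratio in KOb against FFa and 0.54 in KOa against FFa, about the size of these medians. Of the lower ones, Myh9 in KOb and Rap1b in KOa changed sign with it. Another scaling centred the ratios on the median of genes at or above 1 FPKM, 0.02 in KOb and -0.05 in KOa. With that centring, 0 called genes of this list changed sign in either comparison with FFa. Tpm4 (-1.78 ± 0.48 in KOb and -1.25 ± 0.43 in KOa), the Rap1 activator gene Rasgrp2 (-1.06 ± 0.39 and -0.95 ± 0.39) and the filamin gene Flna (-0.52 ± 0.29 and -0.98 ± 0.30) were lower in both mutants in the authors' deposited table. Flna was higher in KOb than in KOa (0.46 ± 0.30). Fermt3, the kindlin of blood cells that activates integrins, was higher in both mutants (0.61 ± 0.30 and 0.50 ± 0.30). Pleckstrin, from Plek, was lower in KOa (-0.89 ± 0.37). Of the 2 eicosanoid enzyme genes tested, the thromboxane synthase gene Tbxas1 was higher in both mutants, at 8.30 FPKM in KOb, 11.8 in KOa and 3.61 in FFa (1.20 ± 0.34 and 1.71 ± 0.33). Ptgs1, the gene of cyclooxygenase 1, was lower in KOb (-0.72 ± 0.44).

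Of 17 transcription factors of this lineage tested, 23.5% were called in KOb against FFa and 23.5% in KOa against FFa, where 28% of all genes tested were called in KOb and 22.1% in KOa. By direction, 2 were higher and 2 lower in KOb (median -0.19) and likewise 2 and 2 in KOa (median 0.07). Each of these counts was 11.8% of those tested. Over all genes, 12.8% were higher and 15.2% lower in KOb, and 7.99% and 14.1% in KOa. Gata1, chosen for its role in both lineages after its values were seen, stood at 105 FPKM in KOb, 138 in KOa and 118 in FFa and was not called against FFa. Runx1, which megakaryocytes keep as erythroblasts lose it, was higher in both mutants (0.56 ± 0.31 in KOb and 0.49 ± 0.32 in KOa). Fli1, the ETS factor of megakaryocytes, was lower in both (-0.57 ± 0.34 and -0.82 ± 0.35). Meis1, a homeobox gene of stem cells and megakaryocytes chosen after its values were seen, was higher in KOb (2.45 ± 1.06) at 0.589 FPKM in KOb, 0.412 in KOa and 0.108 in FFa. Lyl1 was lower in KOb (-0.61 ± 0.26) and Zfpm1, the gene of the GATA1 partner FOG1, was higher in KOa (0.48 ± 0.29). Between the mutants none of 16 was called higher in KOb by the authors' Cuffdiff test, where 10% of all genes tested were. Lower in KOb were 3 of 16 (18.8%, beside 6.19% of all genes), namely Zfpm1 (-0.78 ± 0.29), Lyl1 (-0.52 ± 0.27) and Tal1 (-0.46 ± 0.29).

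**Figure D4:**
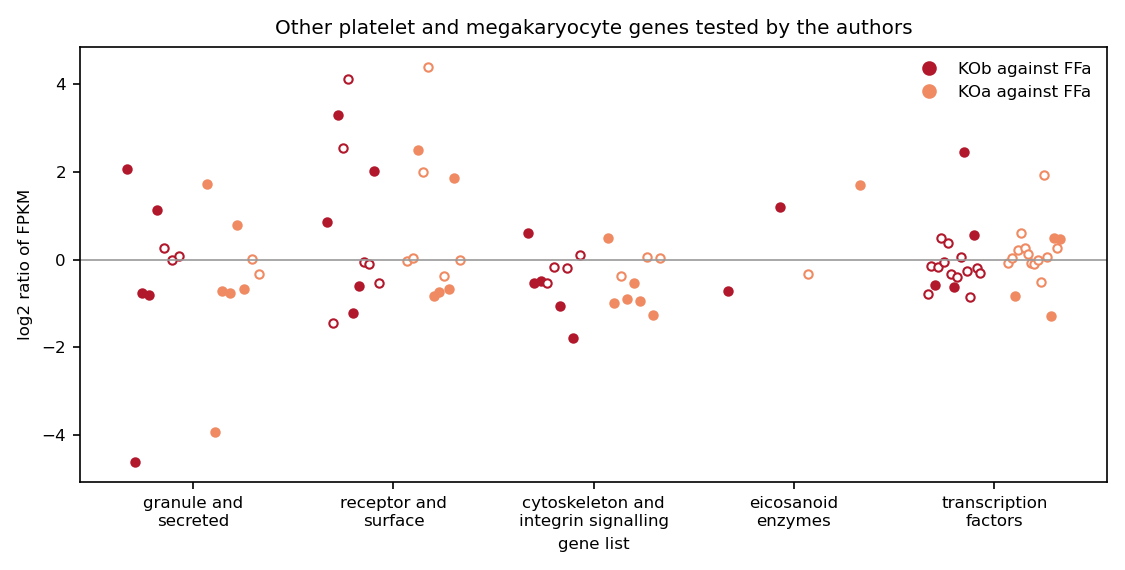
Log2 ratio of FPKM for each tested gene of the 5 further platelet and megakaryocyte lists, in KOb against FFa and KOa against FFa, with filled points for genes called at a q below 0.05. Points lie on both sides of 0 in each list, and F13a1 at -4.61 and F2r at 3.30 are the called genes farthest from 0 in KOb.

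Markers of other cells moved between the groups as well. Of stem and early progenitor markers, 4 were up and 1 was down of 7 tested in KOb against FFa, and 1 was up and 1 down of 5 in KOa against FFa. Their sum was 19.8 FPKM in KOb, 12.5 in KOa and 13.9 in FFa, and Procr was listed at 0 in FFa. The stem cell factor receptor gene Kit stood at 2.36 FPKM in KOb, 0.751 in KOa and 0.399 in FFa (log2 ratios 2.57 ± 0.50 and 0.91 ± 0.54 against FFa in the authors' deposited table, and 1.66 ± 0.42 between the mutants). Cd48, also carried by many leukocytes, made the largest part of the sum, at 12.2 FPKM in KOb, 4.62 in KOa and 7.23 in FFa. It was higher in KOb (0.75 ± 0.31) and lower in KOa (-0.64 ± 0.36) against FFa. Ly6a, the gene of the stem cell antigen SCA-1, stood at 1.95 FPKM in KOb, 4.40 in KOa and 5.19 in FFa, and was lower in KOb against FFa (-1.41 ± 0.49) and against KOa (-1.17 ± 0.51). The list thus held calls in both directions. Its median log2 ratio was 1.51 in KOb against FFa, beside -0.01 over all genes tested, and 0.91 in KOa, beside -0.08. In KOb against FFa 57.1% of those tested were higher, beside 12.8% of all genes, and 14.3% were lower, beside 15.2%. In KOa against FFa 20% were higher and 20% lower, beside 7.99% and 14.1% of all genes. Like Gp5, Kit was called higher in both mutants and in KOb against KOa, while Pf4, Gp1ba and Itga2b were not called between the mutants. Progenitors of this kind carry CD41, and their part in the Itga2b value was not tested.

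Of mast cell and basophil markers, 1 was up and 2 were down of 5 in KOb, and 1 up and 2 down of 4 in KOa, with a sum of 23.0 FPKM in KOb, 19.1 in KOa and 33.8 in FFa. The carboxypeptidase gene Cpa3 was the higher one (1.40 ± 0.40 and 0.88 ± 0.41). The basophil protease gene Prss34 was lower by more, at 1.29 FPKM in KOb, 1.95 in KOa and 13.8 in FFa (-3.42 ± 0.48 and -2.82 ± 0.43), and the histidine decarboxylase gene Hdc was lower too (-0.74 ± 0.42 and -0.86 ± 0.43). Macrophage markers were lower in 10 of 10 in KOb and 5 of 10 in KOa, and B cell markers in 10 of 10 in both. Neutrophil markers were lower in 7 and higher in 1 of 10 in KOb, and lower in 5 and higher in 1 of 10 in KOa. T and NK cell markers were lower in 4 and higher in 1 of 9 in KOb, and lower in 1 and higher in 1 of 10 in KOa. Erythroid markers were lower in 6 of 12 in KOb and 1 of 12 in KOa, and endothelial markers in 1 of 2 in KOb and 1 of 3 in KOa. Beside these counts, 15.2% of all genes tested were lower and 12.8% higher in KOb against FFa. In KOa against FFa 14.1% of all genes were lower and 7.99% higher. The 9 platelet genes together summed to 59.0 FPKM in KOb, 70.9 in KOa and 39.4 in FFa. Lower neutrophil, macrophage and B cell sums in the mutants thus stood beside more Pf4, Gp1ba and Itga2b. Single leukocyte markers were higher along with these genes. Besides Cpa3, they were Mpo of the neutrophil list (1.75 ± 0.29 in KOb and 1.41 ± 0.29 in KOa) and Nkg7 of the T and NK cell list (1.37 ± 0.37 and 1.22 ± 0.37). The part of the sort's makeup in these values was not tested.

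**Figure D5:**
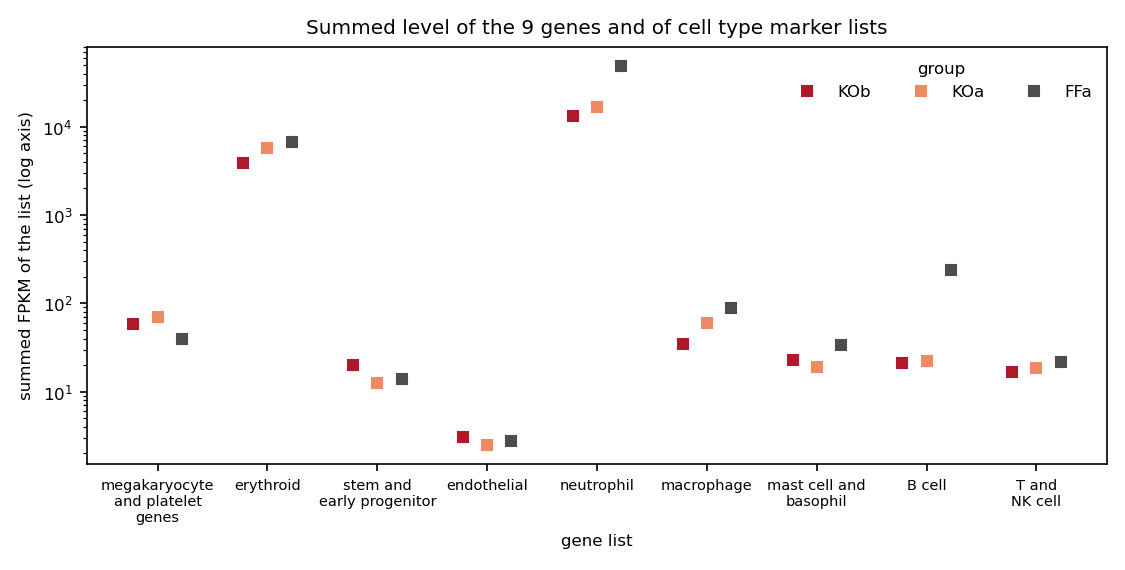
Summed FPKM of the 9 megakaryocyte and platelet genes and of 8 cell type marker lists, on a log axis, with 1 square per list and group. The platelet genes are lowest in FFa (39.4), whereas the neutrophil, macrophage and B cell sums are highest in FFa.

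Genes next to the members were examined within 50000 bases. Of 34 such neighbours, 19 were tested in both comparisons with FFa. Of the 19, 4 were higher and 4 lower in KOb (median log2 ratio 0.11), and 2 higher and 3 lower in KOa (median -0.05). Over all genes tested, 12.8% were higher and 15.2% lower in KOb against FFa, and 7.99% and 14.1% in KOa against FFa. Beside Gp1ba, 3 of 7 tested neighbours were higher and 0 lower in KOb, and 2 of 7 were higher and 0 lower in KOa. The mitochondrial carrier gene Slc25a11 was higher in both mutants by less than Gp1ba (0.58 ± 0.29 in KOb and 0.50 ± 0.29 in KOa). The others were Spag7 (0.72 ± 0.34) and Mink1 (0.77 ± 0.45) in KOb and Pfn1 (0.48 ± 0.23) in KOa. Beside Itga2b, the progranulin gene Grn was lower in both mutants (-0.84 ± 0.28 and -0.72 ± 0.28), as was Slc25a39 (-0.67 ± 0.28 and -0.68 ± 0.28). Next to Itgb3, Myl4 was lower in both (-4.02 ± 1.04 and -4.76 ± 1.14). The authors' locus beside Gp5 joins several genes, of which Atp13a3 was higher in KOb (1.27 ± 0.48 against FFa and 0.56 ± 0.36 against KOa). These ratios are those of the authors' deposited table.

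The genes whose pattern over the 3 group values was nearest to each member were found among 8542 candidates, by distance in the plane of the log2 ratios of KOb and KOa to FFa. With Pf4 lay AI427809 (distance 0.04), the ATF4 target Chac1 (0.14) and 1700106N22Rik (0.16). With Gp1ba lay the cathepsin G gene Ctsg (0.07), Socs2 (0.14) and Klhl22 (0.17), and with Itga2b lay Mgmt (0.03), Ptger3 (0.10) and Slc39a8 (0.19). Near Gp5 lay Muc13 (0.36) and Sdsl (0.49). Gp9 had Wasf2, Fntb and Synj1 at 0.02 each. Gp1bb lay near Gpr171 (0.03), the RNA sensor gene Ifih1 (0.04) and the macrophage marker Emr1 (0.04). No other member was among these nearest genes.

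Level and order among the members can be set side by side. In KOb the order from high to low was Gp9, Pf4, Gp1ba, Itga2b, Gp5, Gp1bb, Itgb3, Vwf and Ppbp, and 6 of the 9 were at or above 1 FPKM. In KOa it was Gp9, Pf4, Gp1ba, Itga2b, Gp1bb, Gp5, Itgb3, Vwf and Ppbp, with 5 at or above 1 FPKM. In FFa it was Gp9, Gp1bb, Pf4, Gp1ba, Itga2b, Itgb3, Vwf, Gp5 and Ppbp, again with 5. Gp9 made up 41.4% of the members' summed FPKM in KOb, 49.0% in KOa and 70.5% in FFa. No spread over libraries was available to say which neighbours in these orders differ.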

How the data were processed

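RNA-seq libraries of 9 samples, 3 per group, used the NuGEN Encore Complete kit on column-purified, DNase-treated RNA, per the labels' protocols. TopHat2 2.0.8b, Bowtie2 2.1.0 and Cuffdiff 2.1.1 with build mm10 are named in the submitters' processing notes; the annotation, any filter and the strand setting are not stated there. The authors deposited FPKM values, 1 per gene and group, with the log2 ratio, a test statistic (a score for that ratio), a p-value and a q-value. Recomputing showed the deposited q-value to be the Benjamini-Hochberg adjustment over 31813 tested results (largest difference 5.27e-07). Depth per library is unknown, and whether libraries came from separate mice is not given, so the tests may measure technical spread.

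Computed here (Python 3.11.15, pandas 2.3.3, NumPy 2.4.6, SciPy 1.17.1, Matplotlib 3.10.9) were implied standard errors, counts, medians, distances and motif matches; locus starts were shifted by 1 base to count from 1. The adjustment and the normal reading were run on simulated statistics drawn from a normal distribution. That checks the calculation only and cannot show whether the authors' statistic follows a normal distribution. Members and lists were chosen with earlier results of these data known. All 9 members are named. From each list, the text names, per comparison, up to 4 called genes of largest change among those reaching 1 FPKM in either group, with the 3 nearest genes of each member at or above 1 FPKM and neighbours within 50000 bases. Of 1 listed symbol no entry was in the table. A few genes that these rules name are not reported here.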

Additional observations from a re-analysis of the deposited data

Results flagged for a closer look

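A pair of members of the set differed between the mutants by the authors' own test of KOb against KOa, although both mutants were set against the same control. The log2 ratio of Gp5 was 1.58, with KOb above KOa, and that of Gp9 was -0.51, with KOb below KOa. The TER119 gate differs between these groups together with the degree of deletion, so the gate and the deletion cannot be told apart.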

How the results depend on the processing

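Pf4, Gp1ba and Itga2b were called higher in both mutants against FFa under each adjustment and threshold on q tried. Gp5 was not called in KOa against FFa at a q threshold of 0.01 or where 1 FPKM had to be reached. It was not called there with p from a normal distribution either. With p taken from a normal distribution of the statistic, the counts of lower members became 0 in KOb against FFa, 0 in KOa against FFa and 0 in KOb against KOa; at an unadjusted normal p below 0.05 each was 1, and the authors' Cuffdiff test gave 2, 1 and 1. With a q threshold of 0.01, 1 member was lower in KOb against FFa, and between the mutants 0 were. Where 1 FPKM had to be reached, 1 was lower in KOb against FFa. Where 5 had to be reached, the counts were 2 higher and 0 lower in KOb against FFa, 2 higher and 0 lower in KOa against FFa, and 0 higher in KOb against KOa, since Gp5, Itga2b, Gp1bb and Vwf are below that level in every group.

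Rescaling to the sum without globin genes moved all log2 ratios by 0.51 in KOb against FFa and by 0.54 in KOa against FFa. The members' medians became 1.48 and 1.60, and no called member changed sign. Uncalled ratios did, with Gp9 in KOb at 0.32, Itgb3 at 0.18 in KOb and 0.24 in KOa, and Vwf at 0.43 in KOa. With ratios centred on the median of genes at or above 1 FPKM, the members' medians were 0.95 in KOb against FFa and 1.11 in KOa. No called member changed sign with that centring. The normal reading over the further platelet genes, chosen after seeing the data, left 4 higher and 3 lower in KOb against FFa and 4 and 3 in KOa against FFa, and at the authors' test there were 9 and 12, and 8 and 14. With a pseudocount of 1 the median in KOa against FFa was 0.42. At least 0.1 FPKM was reached by 9 members in KOa and 8 in FFa, and at least 5 by 3 in KOb, 3 in KOa and 1 in FFa. No paired analysis was possible because the deposited table holds 1 value per group, and leaving out each replicate was not run for the same reason.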
